A study of Rattus norvegicus with 3 samples.

Results

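The genes of glycolysis and of the response to low oxygen were read in wound skin of diabetic rats, by cell class, in 3 single-cell libraries. The members were 35 genes chosen by name, from the glucose transporter Slc2a1 to the oxygen-regulated factors Hif1a and Epas1. All 35 names were found among the 32883 features of the deposited matrices, and 34 of them had at least 1 UMI (a molecule counted once by its barcode) in each library. Ratios between libraries were taken in 5 cell classes, where 22 to 31 of the 35 had enough UMIs, depending on the class and the pair of libraries.

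Each library stands for 1 group, so there was no replicate and no test between groups was possible. The animals were wild-type male SD (Sprague-Dawley) rats, made diabetic at 7 to 9 weeks of age by 65 mg/kg streptozotocin, a toxin of insulin-producing beta cells. Rats whose blood glucose exceeded 16.7 mM received full-thickness skin wounds of 15 mm, and the tissue was taken after 7 days. The 3 groups were wounds without treatment (untreated), wounds treated with a gel of hyaluronic acid (hydrogel) and wounds treated with such a gel that releases carbon monoxide (CO hydrogel). All 3 groups are diabetic, so no healthy skin or unwounded skin enters the comparison, and how many animals gave each library is not given in the labels. The skin was digested with an enzyme kit made for epidermis at 37 °C, and red blood cells were lysed.

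After filtering, 10550 cells of the untreated, 12069 of the hydrogel and 12659 of the CO hydrogel library remained, with a median of 2644, 5951 and 6073 UMIs per cell. The libraries shared 364 to 600 cell barcodes in pairs, and leaving these barcodes out kept every count of members given below within 1.5 times its value. Cells fell into 28 clusters, which were named by marker genes. In that order of libraries, fibroblast-like cells numbered 1291, 1743 and 4979, macrophage or monocyte-like cells 1571, 3102 and 2776, and neutrophil-like cells 5636, 2263 and 453. Endothelial-like cells numbered 313, 797 and 1355, mural-like cells (pericytes and smooth muscle of vessels) 593, 957 and 1100, and dendritic-like and T or NK-like cells 106 to 513 per library. In the rest of the text 3 values joined in this order are those of the untreated, the hydrogel and the CO hydrogel library. Levels are UMIs of a gene per 1000000 UMIs of the cell class (CPM), and ratios are log2 ratios of CPM with a 95% interval that covers counting error only.

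Glycolysis splits glucose into pyruvate without oxygen, and cells that rely on it reduce the pyruvate to lactate and export it. When oxygen is low, the hypoxia-inducible factors HIF-1α (Hif1a) and HIF-2α (Epas1) escape destruction, since the prolyl hydroxylases that mark them (Egln1, Egln3) need oxygen, and they then switch on glucose uptake, most glycolytic enzymes and genes such as Bnip3 and Adm. HIF-1α is controlled mainly as a protein, so its transcript is not a measure of its activity. Wounds are poorly perfused, and neutrophils and activated macrophages are known for their dependence on glycolysis.

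The factors bind DNA at the letters ACGTG or GCGTG, and the promoter stretches of 5 members are shown because they hold ACGTG. Of these, Ldha, Slc2a1 and Bnip3 were at least 1.5-fold lower in CO hydrogel than in untreated fibroblast-like cells. P4ha2 and Pfkfb3 were not. The sequences are from RefSeq, build GRCr8, which is not the build of the count matrices (rn6), and each is written 5′ to 3′ on the strand of its gene. Capitals mark ACGTG or its reverse complement CACGT, and where both overlap the run CACGTG counts as 1 match.
Ldha (chr1:106507984-106508044, plus strand): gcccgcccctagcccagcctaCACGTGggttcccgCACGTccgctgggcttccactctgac
Slc2a1 (chr5:138002443-138002503, plus strand): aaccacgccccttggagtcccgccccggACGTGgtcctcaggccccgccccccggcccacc
Bnip3 (chr1:203155029-203155088, minus strand): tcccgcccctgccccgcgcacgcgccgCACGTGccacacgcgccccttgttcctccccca
P4ha2 (chr10:38743741-38743877, plus strand): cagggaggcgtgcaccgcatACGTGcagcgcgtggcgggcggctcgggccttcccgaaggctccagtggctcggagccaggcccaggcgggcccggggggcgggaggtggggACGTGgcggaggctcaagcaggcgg
Pfkfb3 (chr17:71944864-71944923, plus strand): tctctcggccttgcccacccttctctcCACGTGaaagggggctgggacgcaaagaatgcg
Promoter entries matched 28 of the 35 members. In the 250 bases before the start site, ACGTG on either strand was found in 11 of the 28 (39.3%), against 16.6% of 33469 rat promoters of the same length. At least 2 matches were found in 4 members (Ldha, Hif1a, Ankrd37 and P4ha2), or 14.3% against 2.10%. GCGTG was found in 14 of the 28 (50.0%) against 25.9%. These are matches of letters and say nothing of binding in this tissue, and the list was drawn up around the targets of these factors.

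In 5 of the 7 compared classes the members together took their highest mean share of a cell's UMIs in the untreated library; the mural-like and the neutrophil-like class were the exceptions. Summed per cell, the members gave a mean of 4.64, 3.67 and 3.15 UMIs per 1000 UMIs of a fibroblast-like cell and 5.89, 5.40 and 3.49 of a macrophage or monocyte-like cell. The standard deviation over cells was 1.95, 1.52 and 1.32 in the fibroblast-like and 2.96, 3.90 and 1.88 in the macrophage or monocyte-like class, so single cells of the 3 libraries overlapped widely. Endothelial-like cells gave 4.47, 4.02 and 3.72 and mural-like cells 4.31, 4.51 and 4.01, while neutrophil-like cells gave 6.01, 7.75 and 8.07. Dendritic-like cells gave 4.55, 3.58 and 3.41 and T or NK-like cells 4.46, 3.82 and 3.20.

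**Figure D1:**
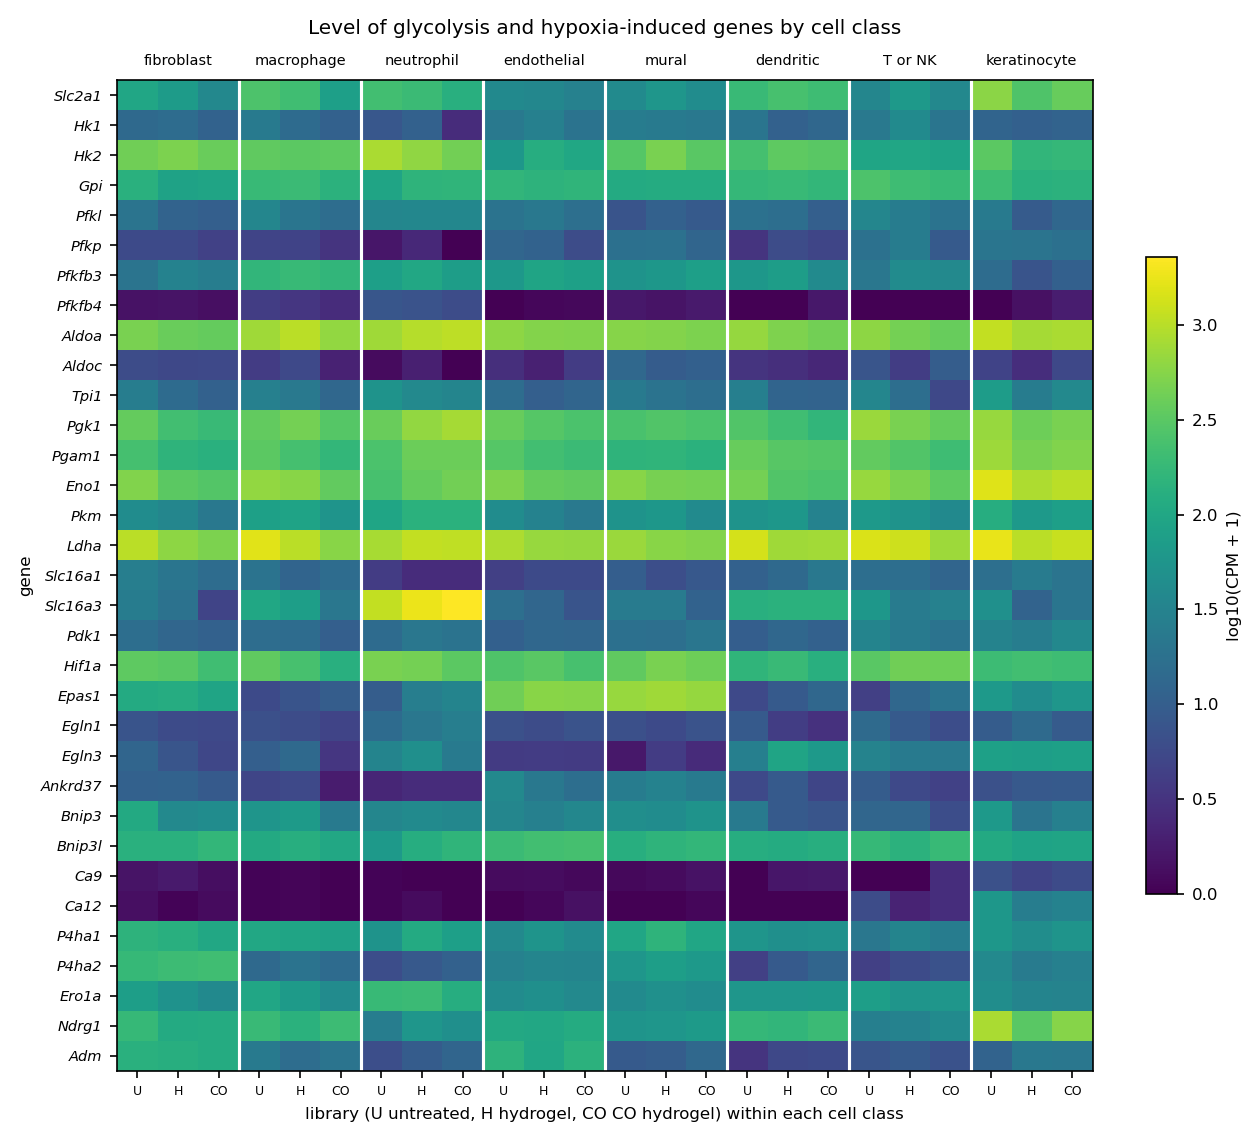
Level of each member, as log10(CPM + 1), in 8 cell classes (groups of columns) and 3 libraries (columns U untreated, H hydrogel, CO CO hydrogel); Slc2a3 and Eno2, at or near 0, are left out. Slc16a3 stands out in the neutrophil columns, Epas1 in the endothelial and mural columns, and Ca12 in the keratinocyte columns.

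Before any comparison of treatments, the members differed between cell classes. A class is called highest where its mean over the 3 libraries is highest among the 7 compared classes. Of 31 members with at least 100 UMIs over the 7 compared classes, 12 had their highest mean level in neutrophil-like cells, 5 in T or NK-like, 4 in fibroblast-like, 3 each in macrophage or monocyte-like and mural-like, and 2 each in endothelial-like and dendritic-like cells. The class was the same in all 3 libraries for 14 of them, and for 11 its lowest library lay above the highest library of the next class. Those 11 were Pfkl, Pfkfb3, Pfkfb4, Tpi1, Pkm, Slc16a3, Epas1, Egln1, Bnip3l, P4ha2 and Ero1a.

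The widest gap was that of Slc16a3, which encodes the lactate exporter MCT4. It stood at 1114, 1836 and 2283 CPM in neutrophil-like cells and at 131, 139 and 138 CPM in dendritic-like cells, the next class, and it is 1 of the leading genes of a neutrophil cluster. The other lactate carrier, Slc16a1 (MCT1), had its highest mean in fibroblast-like cells, at 26.7, 19.1 and 14.2 CPM. Dendritic-like cells, at 10.1, 13.0 and 20.8 CPM, overlapped them and were higher in the CO hydrogel library. In neutrophil-like cells Slc16a1 stood at 2.91, 1.68 and 1.66 CPM. The 2 carriers thus had their highest mean level in different classes, with a class set apart from the next only for Slc16a3.

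The 2 HIF factors also differed in where they were read. Hif1a lay between 129 and 484 CPM in all 7 classes and all 3 libraries. Epas1 was highest in mural-like cells at 692, 762 and 679 CPM, followed by endothelial-like cells at 429.7, 574 and 565 CPM, and these ranges did not overlap. In macrophage or monocyte-like cells Epas1 stood at 4.74, 6.42 and 8.90 CPM. Among the members of the HIF feedback, Ankrd37 was highest in mural-like (24.6, 29.8 and 22.7 CPM) and endothelial-like cells (37.1, 21.4 and 15.2 CPM), whose ranges overlapped. Egln1 was highest in neutrophil-like cells at 13.9, 20.2 and 26.5 CPM.

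Enzymes that modify collagen or secreted proteins followed the matrix-producing cells only in part. P4ha2, a subunit of the collagen prolyl hydroxylase, was highest in fibroblast-like cells at 176, 197 and 215 CPM, with mural-like cells next at 56.5, 74.3 and 64.4 CPM. P4ha1, the other catalytic subunit, was at 149, 131 and 103 CPM in fibroblast-like and 96.7, 152 and 95.9 CPM in mural-like cells, which overlapped. Ero1a, an oxidase of the endoplasmic reticulum, was highest in neutrophil-like cells at 181, 192 and 124 CPM. Pfkfb3, which makes the activator of phosphofructokinase, was highest in macrophage or monocyte-like cells at 163, 183 and 163 CPM. Its relative Pfkfb4 was highest in neutrophil-like cells at 7.03, 6.26 and 4.97 CPM. Among the 7 compared classes Ndrg1 was highest in macrophage or monocyte-like cells at 188, 137 and 199.9 CPM. That range overlapped the range of dendritic-like cells, with means of 175 and 174 CPM. Outside these classes Ndrg1 was higher, at 844, 310.1 and 561 CPM in keratinocyte-like cells. In mast or basophil-like cells (6, 36 and 86 cells) it was at 673, 711 and 691 CPM.

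Some members were hardly read at all. Slc2a3, the transporter GLUT3, had 0 UMIs in every kept cell, which allows a level of up to 0.0434, 0.0328 and 0.0323 CPM (3 counts per library, counting error only). Eno2 had 2, 6 and 1 UMIs in all, and Ca9, a carbonic anhydrase induced by hypoxia, 29, 38 and 48. Ca12, another carbonic anhydrase, was read mainly in the keratinocyte-like cells (99, 111 and 250 cells, given as levels with no ratios), which held 111 of 126, 60 of 70 and 104 of 124 of its UMIs, at 58.9, 25.7 and 30.2 CPM. Ca9 was at 5.84, 3.86 and 4.93 CPM there, from 11, 9 and 17 UMIs, and fibroblast-like cells held 11, 18 and 15. Keratinocyte-like cells also had high Slc2a1 (598, 271 and 376 CPM) and Ndrg1 (844, 310.1 and 561 CPM), a stress-response gene.

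Fibroblast-like cells of the CO hydrogel wound had lower levels of most glycolytic genes than those of the untreated wound, with the lactate-forming enzyme Ldha, the enolase Eno1 and the glucose transporter Slc2a1 among them. Of 30 members with at least 100 UMIs over both libraries, 16 were at least 1.5-fold lower and 0 higher. Among all genes of the class measured the same way, 5.59% were that much lower and 15.2% higher. The median log2 ratio was -0.62 over the members and 0.14 over all genes. In the hydrogel library 9 of 30 members were at least 1.5-fold lower than in the untreated library and 1 higher, against 5.09% and 13.7% of all genes, with medians of -0.38 and 0.14. Between the CO hydrogel and the hydrogel library 4 of 30 were lower and 0 higher, against 4.93% and 5.61%, with medians of -0.27 and -0.01. The 3 pairs share libraries, so these counts are not independent of each other.

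Of the 30 members with at least 100 UMIs over the 3 libraries, 19 stood in the order untreated, hydrogel, CO hydrogel from high to low, against 12.0% of all genes with as many UMIs. The glucose transporter Slc2a1 was 1 of them and was at 95.5, 69.6 and 36.1 CPM, with a log2 ratio of -0.95 (-1.05 to -0.85) for CO hydrogel to hydrogel and -1.40 (-1.50 to -1.31) for CO hydrogel to untreated. The first phosphorylation of glucose did not follow it, since Hk2, the inducible hexokinase, was at 432, 498 and 387 CPM. Pfkl, a subunit of phosphofructokinase, was at 18.8, 10.7 and 9.25 CPM, and Gpi, the isomerase before it, at 134, 85.5 and 90.7 CPM. Pfkfb3 went the other way, at 18.5, 29.6 and 25.4 CPM, and was the member at least 1.5-fold higher in the hydrogel than in the untreated library, with a log2 ratio of 0.68 (0.50 to 0.86), or 0.52 under TMM scaling and 0.44 with matched clusters. Macrophage markers, all 13 of them read, stood at 1881, 4629.7 and 4845 CPM in fibroblast-like cells; their part in the level of Pfkfb3, which is highest in macrophage or monocyte-like cells, was not tested.

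In lower glycolysis 5 of 7 measured members were at least 1.5-fold lower in the CO hydrogel than in the untreated library. Among all genes of the class 5.59% were that much lower and 15.2% higher. Tpi1, the triose phosphate isomerase, was at 25.7, 14.0 and 10.1 CPM, and Pgk1, the first enzyme of the pathway to yield ATP, at 367, 221 and 189.6 CPM. Eno1 was at 533, 322 and 285 CPM and Pgam1, the mutase before it, at 229, 154 and 133 CPM. In each of these 4 the step from the untreated to the hydrogel library was larger than that from the hydrogel to the CO hydrogel library. Pkm, the pyruvate kinase, had the larger step between the 2 gels, at 41.8, 33.5 and 21.0 CPM. Aldoa, the main aldolase, stayed within 1.5-fold at 477, 389 and 362 CPM.

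All 4 members that handle pyruvate and lactate were at least 1.5-fold lower in the CO hydrogel than in the untreated library. The share of all genes of the class that much lower was 5.59%, and 15.2% were higher. Ldha was at 1035, 609 and 494 CPM, with a log2 ratio of -1.07 (-1.09 to -1.04) for CO hydrogel to untreated and -0.77 (-0.80 to -0.74) for hydrogel to untreated. Pdk1, the kinase that keeps pyruvate out of the mitochondria, was at 15.4, 12.0 and 10.1 CPM. Slc16a3 had the largest ratio of the 30 measured members, at 24.5, 17.2 and 3.90 CPM, or -2.14 (-2.40 to -1.88) for CO hydrogel to hydrogel and -2.65 (-2.90 to -2.41) for CO hydrogel to untreated. Neutrophil-like cells, where Slc16a3 is highest, were also fewest in the CO hydrogel library, and all 13 of their markers were read in fibroblast-like cells of the untreated and the hydrogel library and 12 of 13 in those of the CO hydrogel library, at a summed 1366, 491 and 231 CPM. Per 1000 UMIs of those markers, fibroblast-like cells held 17.9, 34.9 and 16.8 UMIs of Slc16a3 and neutrophil-like cells 17.1, 24.9 and 25.4; the part of neutrophil RNA in this ratio was not tested. The same markers stood at 2.10%, 0.666% and 0.257% of their level in neutrophil-like cells, while Ldha in untreated fibroblast-like cells (1035 CPM) lay above its level in untreated neutrophil-like cells (824 CPM).

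The hypoxia-induced members outside glycolysis split in the fibroblast-like class. Bnip3, a mitophagy receptor, was at 109, 37.6 and 41.9 CPM, low in both treated libraries, with a log2 ratio of -1.54 (-1.65 to -1.43) for hydrogel to untreated and 0.16 (0.04 to 0.27) between the gels. Its relative Bnip3l was at 133, 135 and 165 CPM. Egln3, a hydroxylase that is itself a HIF target, was at 11.3, 6.67 and 4.17 CPM, and Ero1a at 76.4, 51.2 and 38.2 CPM. Ndrg1 was at 176, 111 and 114 CPM. Adm, the vasodilator adrenomedullin, stayed within 1.5-fold at 134, 126 and 114 CPM, as did P4ha2 and Epas1 (111, 119 and 91.5 CPM). Hif1a was at 335, 316 and 213 CPM, so the hydrogel library was near the untreated one and the CO hydrogel library was low.

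**Figure D2:**
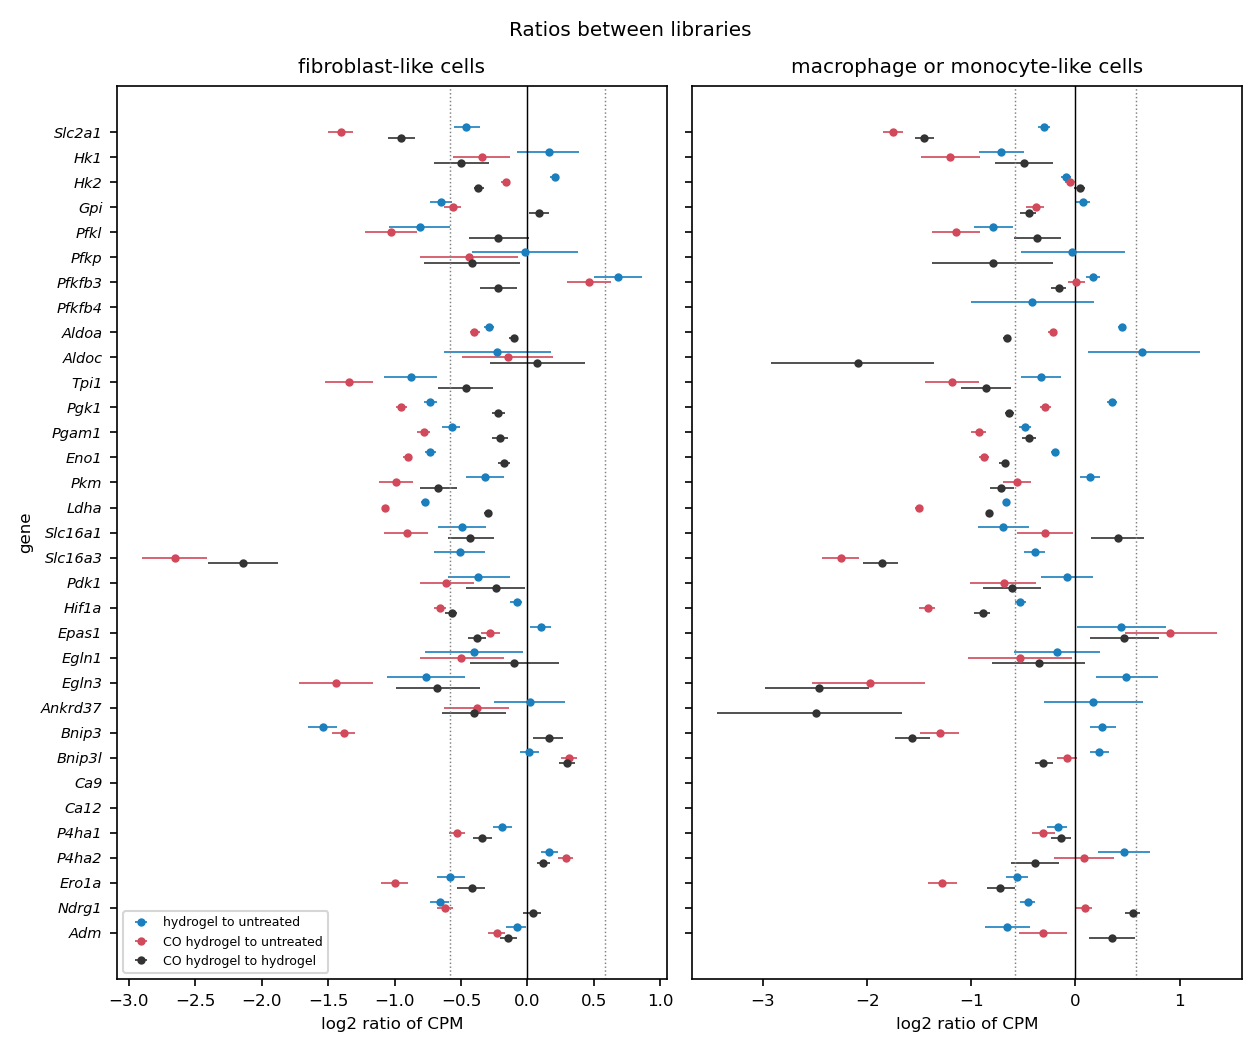
Log2 ratio of CPM (x axis) for each member (y axis) in fibroblast-like cells (left) and macrophage or monocyte-like cells (right) for 3 pairs of libraries, with 95% intervals that cover counting error only; dotted lines mark 1.5-fold. In fibroblast-like cells the points of CO hydrogel to untreated lie mostly left of 0, down to -2.65 for Slc16a3, while Pfkfb3, Bnip3l and P4ha2 lie right of it.

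The fibroblast-like class did not hold the same clusters in each library. Cluster 12, led by Gap43, Dpp4 and Pi16, held 625 of the 1291 untreated cells, and cluster 10, led by Cxcl13 and Sfrp4, held 789 of 1743 and 2711 of 4979 cells of the treated libraries. The differences were also read inside these clusters: Ldha was at 750.4, 599.8 and 429.5 CPM in cluster 10, 1144, 599.8 and 567 in cluster 12 and 1024, 621 and 588 in cluster 13, led by Tnn and Prss35. Slc2a1 was at 83.8, 69.5 and 35.4 CPM in cluster 10, 101, 43.4 and 31.9 in cluster 12 and 94.0, 76.1 and 46.6 in cluster 13. With the same cluster weights in both libraries, 14 of 30 members were at least 1.5-fold lower in the CO hydrogel than in the untreated library. The share of all genes under these weights is not given here. For Egln3 the ratio between the gels was -0.13 with matched clusters, in place of -0.68.

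Depth and handling also differed between the libraries of this class. Its median UMIs per cell were 16459, 13482 and 9174, and after every cell was thinned to 1000 UMIs, a Slc2a1 UMI was found in 9.18%, 5.64% and 2.76% of the cells. The shares were 0.962%, 5.15% and 2.53% in T or NK-like cells and 5.45%, 3.45% and 3.06% in endothelial-like cells. Neither class is known to lack the transporter, so the share that free RNA gives was not measured. Without thinning, 57.7%, 44.4% and 22.6% of fibroblast-like cells had a Slc2a1 UMI. A Ldha UMI was found in 58.9%, 40.8% and 36.0% of thinned cells, against 45.6%, 41.3% and 38.9% in mural-like cells. Separately, 11 of 14 genes known to react to tissue dissociation, such as Fos and Hspa1b, were at least 1.5-fold higher in the hydrogel than in the untreated library and 6 of 14 in the CO hydrogel library. Of 12 housekeeping genes 1, the member Pgk1, was lower in the hydrogel than in the untreated library and 0 higher, and 7 of 12 cell cycle genes were lower in the CO hydrogel than in the untreated library. Of all genes of the class, 13.7% were higher and 5.09% lower in the hydrogel than in the untreated library. In the CO hydrogel library these shares were 15.2% and 5.59%. The part of dissociation and of cell division in the members' differences was not tested.

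Macrophage or monocyte-like cells had the largest share of members lower between the 2 gels, with Slc2a1, Hif1a, Ldha and the lactate exporter Slc16a3 among them. Of 30 measured members, 16 were at least 1.5-fold lower in the CO hydrogel than in the hydrogel library and 0 higher, against 6.74% and 9.81% of all genes of the class, with medians of -0.62 and -0.01. Against the untreated library, 13 of 27 were lower and 1 higher in the CO hydrogel library (5.80% and 13.8% of all genes, medians -0.56 and 0.13). In the hydrogel library 5 of 31 were lower and 1 higher (5.74% and 11.0%, medians -0.17 and 0.12). With matched cluster weights the count lower was 6 of 30 between the gels and 7 of 27 for CO hydrogel to untreated. For hydrogel to untreated it was 2 of 31, with 4 higher and a median of 0.20. The shares of all genes under these weights are not given here, so these counts have no background beside them and are not a result about the members. The median UMIs per cell of the class were 8117, 7939 and 5233, and fibroblast markers in it were at 658, 688 and 1836 CPM. Cell cycle genes were higher in the treated libraries, 8 of 10 in the hydrogel and 5 of 7 in the CO hydrogel library against the untreated one, and the part of these in the members' differences was not tested.

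Slc2a1 was at 262, 212 and 77.6 CPM, a log2 ratio of -1.45 (-1.54 to -1.36) between the gels. Hif1a was at 346, 239.7 and 129 CPM and Ldha at 1626, 1019 and 573 CPM, both stepping down from library to library. With matched clusters the ratio between the gels was -0.49 for Hif1a and -0.17 for Ldha, both within 1.5-fold. Slc16a3 was at 98.3, 75.1 and 20.6 CPM. Its ratio to neutrophil markers in this class was 58.8, 158 and 104 UMIs per 1000, above that in neutrophil-like cells in each library, and those markers were at 1671, 476 and 199 CPM.

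A second set of members was highest in the hydrogel library. Aldoa was at 756, 1029.9 and 650.1 CPM and Pgk1 at 356, 453 and 292 CPM. Bnip3 was at 55.7, 66.9 and 22.6 CPM and Egln3 at 9.33, 13.1 and 2.38 CPM, with log2 ratios of -1.57 (-1.73 to -1.40) and -2.46 (-2.98 to -1.98) between the gels. Pkm was at 80.0, 88.2 and 54.1 CPM, Aldoc at 2.91, 4.55 and 1.07 CPM and Ankrd37, a HIF target of poorly known function, at 4.08, 4.59 and 0.815 CPM, the last of these from 13 UMIs in the CO hydrogel library. In these genes the untreated library lay between the gels or near the hydrogel library.

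The other lower members stepped down or differed mainly from the untreated library. Eno1 was at 655, 572 and 356 CPM, Tpi1 at 27.8, 22.1 and 12.2 CPM and Ero1a at 97.6, 66.1 and 40.2 CPM. Hk1, the housekeeping hexokinase, was at 23.0, 14.1 and 10.0 CPM, Pfkl at 33.4, 19.4 and 15.0 CPM and Pgam1 at 320.3, 229 and 168 CPM. Pdk1 was at 15.0, 14.2 and 9.27 CPM and Pfkp, the platelet-type phosphofructokinase, at 3.86, 3.78 and 2.19 CPM. Hk2 (344, 323 and 333 CPM), Pfkfb3, P4ha1 (103, 91.4 and 83.2 CPM) and Bnip3l (108, 127 and 102 CPM) stayed within 1.5-fold in all 3 pairs. Adm was at 23.5, 14.9 and 18.9 CPM and Slc16a1 at 17.8, 11.0 and 14.5 CPM, lowest in the hydrogel library; with matched clusters the ratio of hydrogel to untreated turned from -0.66 to 0.14 for Adm and was -0.38 in place of -0.70 for Slc16a1. Epas1 was the member at least 1.5-fold higher in the CO hydrogel than in the untreated library, 0.91 (0.48 to 1.36), from 65 and 142 UMIs.

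The summed level of the members differed between the clusters of this class. Cluster 20, led by Csf3, Ereg and Arg1, had a summed member level of 7805, 11233 and 7911 CPM, and it held 556, 493 and 26 cells. The other clusters lay lower in each library: cluster 5, led by Spp1 and Trem2, at 5229, 4759 and 3930.0 CPM, cluster 8, led by MHC class II genes, at 5118, 3973 and 4089.8, and cluster 9, led by Cd163, at 4205, 3148 and 2822. Cluster 20 was the most numerous of the class in the untreated library (556 of 1571 cells), cluster 5 in the hydrogel library (1548 of 3102) and cluster 9 in the CO hydrogel library (1286 of 2776).

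Single members behaved differently inside these clusters. Ldha was at 2434, 2522 and 2349 CPM in cluster 20, with the 3 libraries close together, and at 1463, 916 and 555 CPM in cluster 5. With matched clusters its ratio between the gels was -0.17 in place of -0.83, and that of Tpi1 -0.02 in place of -0.86. Eno1 was at -0.09 in place of -0.68, Aldoa at -0.22 in place of -0.66, Pgk1 at -0.15 in place of -0.64 and Pkm at -0.22 in place of -0.71. Hif1a (-0.49), Ero1a (-0.38), Pdk1 (-0.18) and Pfkp (-0.56) were also within 1.5-fold then. Slc2a1 kept a ratio of -0.81 with matched clusters, at 132, 143 and 78.9 CPM in cluster 5 and 81.7, 81.6 and 43.5 in cluster 9. Bnip3 (-0.70), Slc16a3 (-0.90), Egln3 (-1.33), Aldoc (-1.42) and Ankrd37 (-2.06) also stayed past 1.5-fold. In cluster 20 of the hydrogel library Bnip3 stood at 309 CPM against 87.7 in the untreated one, and Pgk1 at 1078 against 431 CPM.

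Some myeloid cells were not in the class. Cluster 17, led by Fcnb and left unnamed, had the highest summed member level of any cluster of at least 20 cells in the untreated library, at 9364, 7423 and 6466 CPM in 529, 630 and 441 cells. Cluster 7, led by Cxcl11, was at 7033, 7665 and 6236 CPM in 55, 940 and 42 cells. These clusters were also counted into the class, together with cluster 6, led by Acp5 and Ctsk. That left 12 of 31 members lower between the gels and 16 of 30 lower for CO hydrogel to untreated. The share of all genes in this enlarged class is not given here.

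**Figure D3:**
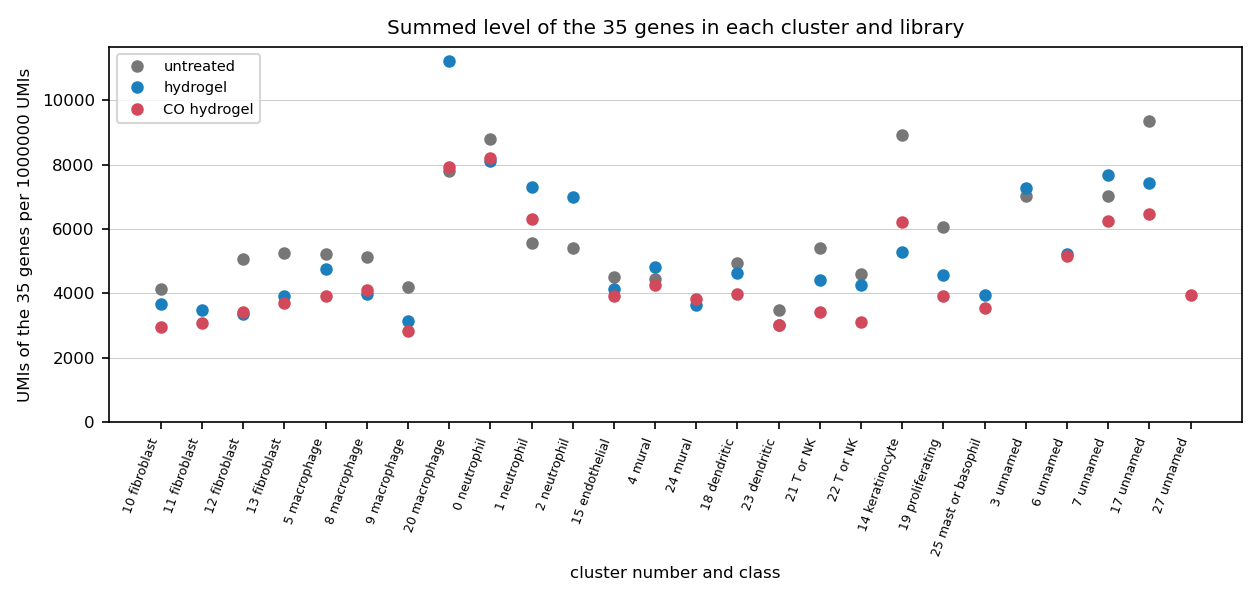
Summed level of the 35 members (y axis, UMIs per 1000000 UMIs) in each cluster with at least 20 cells in a library (x axis, cluster number and class), 1 point per library. Macrophage cluster 20 reaches 11233 in the hydrogel library, and clusters 10, 12 and 13 of the fibroblasts lie highest in the untreated library.

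Neutrophil-like cells read higher for many members in the treated libraries when scaled to total UMIs, but so did most genes of the class, and the direction turned under another scaling. Of 25 measured members 9 were at least 1.5-fold higher and 0 lower in the hydrogel than in the untreated library, against 56.9% and 5.29% of all genes, and the median was 0.54 over members and 0.71 over all genes. For CO hydrogel to untreated 10 of 23 were higher and 3 lower, against 55.9% and 8.80%, with medians of 0.49 and 0.72. The share of members higher was thus below that of all genes in both pairs. The 10 most abundant genes took 38.7%, 31.3% and 30.2% of the UMIs of the class, and the chemokine gene Cxcl2 alone stood at 70055, 30996 and 16112 CPM. TMM scaling assumes that most genes do not differ, and its factors for the class were 0.621, 1.16 and 1.39. It lowered the ratios to the untreated library by more than their median over all genes. Under it, 1 of 25 members was higher and 8 lower in the hydrogel than in the untreated library. For CO hydrogel to untreated 1 of 23 was higher and 12 lower. The share of all genes under this scaling is not given here, so these counts are not a result about the members. Between the gels 2 of 22 were lower and 0 higher (7.31% and 8.93%, medians -0.03 and 0.10).

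The 3 members lower in the CO hydrogel than in the untreated library lay against that shift. Hk2 was at 857, 629 and 439 CPM, with a log2 ratio of -0.96 (-1.14 to -0.79) for CO hydrogel to untreated. Slc2a1 was at 222, 191 and 131 CPM and Tpi1 at 52.3, 37.5 and 33.2 CPM, the latter from 20 UMIs in the CO hydrogel library. Hif1a (477, 457 and 325 CPM), Ero1a and Egln3 (31.5, 46.2 and 23.2 CPM) were lowest in the CO hydrogel library too. TMM scaling lowered every ratio of CO hydrogel to untreated by the same amount. Hk2, Slc2a1 and Tpi1, at -2.12, -1.92 and -1.82, could therefore only stay lower. With matched clusters Hk2 was at -1.33 and Slc2a1 at -1.09, while Tpi1 was at -0.29, within 1.5-fold. Matching used only clusters with at least 20 cells in both libraries. Cluster 2, with 2764 untreated and 16 CO hydrogel cells, was therefore left out here, and cluster 1 held 34 CO hydrogel cells.

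The members at least 1.5-fold higher than in the untreated library in 1 or both treated libraries were spread over the pathway. Gpi was at 90.2, 151 and 159 CPM, Pgk1 at 389.6, 655 and 807, Pgam1 at 257, 399 and 403 and Eno1 at 236, 368 and 438 CPM. Pkm was at 92.6, 138 and 139 CPM, while Ldha (824, 1126 and 1098 CPM) and Aldoa (763, 972 and 1068 CPM) stayed within 1.5-fold. Bnip3l was at 64.6, 124 and 156 CPM, Ndrg1 at 25.9, 58.0 and 46.4, P4ha1 at 52.0, 110.5 and 77.9 and Epas1 at 8.66, 26.5 and 31.5 CPM. Fibroblast markers in this class were at 1541, 2109 and 4594 CPM and macrophage markers at 6701, 12491 and 12751 CPM, with all 10 and all 13 read in each library, and their part in these levels was not tested. Under TMM scaling the ratios of Gpi, Pgk1, Pgam1, Eno1 and Slc16a3 to the untreated library turned negative in both treated libraries, while that of Epas1 stayed at 0.71 for hydrogel and 0.70 for CO hydrogel, and that of Bnip3l was 0.04 and 0.11.

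The clusters of this class changed places between libraries. Cluster 2, led by Il23a and Ccl3, held 2764 of 5636 untreated cells, and cluster 0, whose leading genes include Slc16a3 and Csf3r, held 1584 of 2263 and 403 of 453 cells of the treated libraries. In cluster 0 the summed member level was 8793, 8103 and 8213 CPM, and in cluster 2 it was 5394, 6999 and 6699.7 CPM, the last from 16 cells. Within cluster 0 Slc16a3 was at 2501, 2175 and 2367 CPM and Ldha at 1409.7, 1192 and 1096 CPM, so neither was higher in the treated libraries there. Hk2 in cluster 0 was at 928, 597 and 438 CPM. Cluster 3, whose best class was also neutrophil, was left unnamed for low UMI counts together with 0 class markers among its leading genes, such as Rsad2 and Isg15. Its median of 1839 UMIs per cell lay near those of clusters 0 (1659) and 2 (1860). The 44, 542 and 4 cells of cluster 3 are not in the class.

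In endothelial-like cells few members were past 1.5-fold, with Ankrd37, Slc16a3 and Pkm lower and Hk2 higher in the CO hydrogel than in the untreated library. Between the gels 3 of 26 members were at least 1.5-fold lower and 0 higher, against 3.92% and 6.40% of all genes. In the hydrogel library 3 of 26 were lower and 1 higher than in the untreated library (2.44% and 10.1%), and in the CO hydrogel library 4 of 25 lower and 1 higher (3.88% and 13.7%). Ankrd37 was at 37.1, 21.4 and 15.2 CPM, a log2 ratio of -1.29 (-1.63 to -0.95) for CO hydrogel to untreated. Hk2 went the other way, at 58.4, 121 and 99.7 CPM. Pkm was at 42.6, 29.9 and 21.6 CPM, Pgam1 at 293, 219 and 193 CPM and Pfkp at 11.7, 10.4 and 4.96 CPM. Slc16a3 was at 15.8, 11.9 and 6.35 CPM, beside neutrophil markers at 516, 559.7 and 261 CPM. Adm was lowest in the hydrogel library, at 149.6, 96.7 and 144 CPM, as was Tpi1 at 15.1, 9.52 and 11.3 CPM. Hk1 was at 21.6, 28.3 and 18.0 CPM. Bnip3l, highest in this class, stayed within 1.5-fold at 192, 218 and 235 CPM. Of the cell cycle genes, 9 of 11 measured were lower in the CO hydrogel than in the untreated library of this class, and their part in these differences was not tested.

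In mural-like cells few members were past 1.5-fold, with Hk2 and P4ha1 higher in the hydrogel library and Slc16a3 lower in the CO hydrogel library. Between the gels 2 of 27 were lower and 0 higher, against 2.51% and 3.38% of all genes. For hydrogel to untreated 1 of 27 was lower and 3 higher (2.65% and 7.20%), and for CO hydrogel to untreated 1 lower and 2 higher (2.37% and 8.57%). The medians over the members were -0.15, 0.14 and -0.01 in these pairs. Hk2 was at 300.1, 474 and 318 CPM and P4ha1 at 96.7, 152 and 95.9 CPM, the latter with a log2 ratio of 0.65 (0.51 to 0.80) to the untreated library. Pfkfb3 was at 51.4, 59.0 and 78.5 CPM, Pfkl at 6.40, 10.0 and 7.81, Aldoc at 12.6, 8.39 and 9.72 and Adm at 7.88, 8.90 and 12.8 CPM. Slc16a3 was at 23.8, 23.7 and 10.5 CPM, beside neutrophil markers at 803, 518 and 392 CPM. Fibroblast markers in this class were at 8998, 16476 and 21324 CPM, with all 10 read in each library, and the part of either list in these differences was not tested. Ldha was at 717, 575 and 539 CPM, within 1.5-fold.

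**Figure D4:**
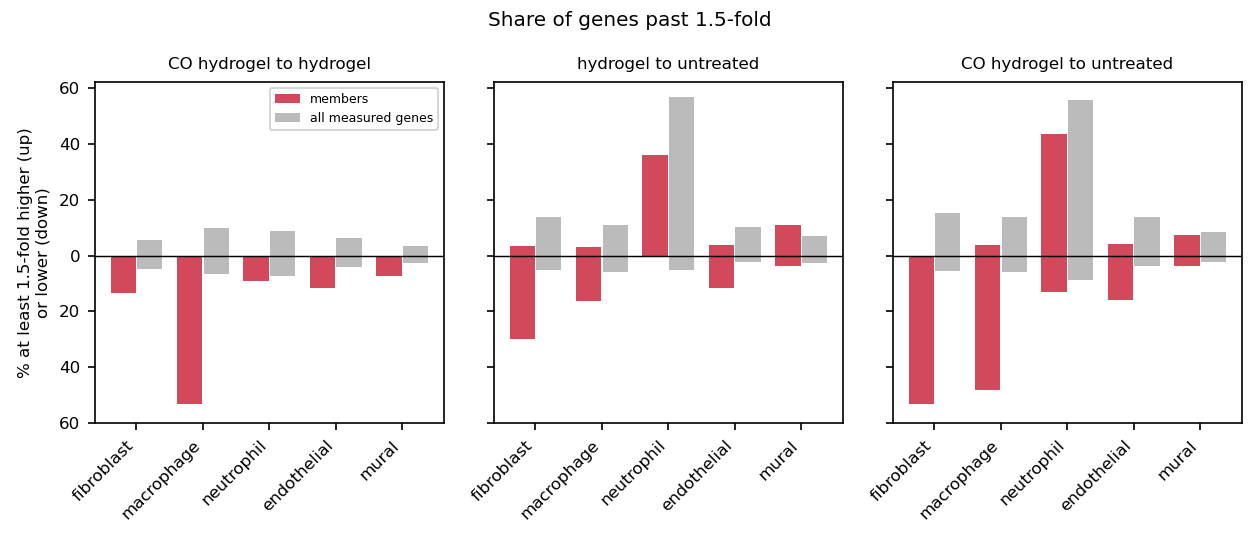
Share of members (red) and of all measured genes (grey) at least 1.5-fold higher (bars up) or lower (bars down) in 5 cell classes, 1 panel per pair of libraries. In fibroblast and macrophage or monocyte-like cells the members' bars for CO hydrogel to untreated reach further down than the grey bars (5.59% and 5.80%). Against the untreated library the bars of neutrophil members point mostly up, to 36.0% for hydrogel and 43.5% for CO hydrogel. The grey bars there reach further up, to 56.9% and 55.9%. Under TMM scaling, which is not drawn, more neutrophil members were lower than higher, with no share of all genes given beside it.

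The small lymphoid and dendritic classes add levels for the abundant enzymes. In T or NK-like cells (106, 513 and 419 cells) Ldha was at 1463, 1264 and 742 CPM, Eno1 at 682, 495 and 339, Pgk1 at 709, 478 and 366, Pgam1 at 353, 279 and 205 and Aldoa at 618, 457 and 375 CPM. All 5 stood in the order untreated, hydrogel, CO hydrogel from high to low. They were among 10 of the 20 members with at least 100 UMIs over the 3 libraries of this class that did so. The share of all genes in that order is not given for this class. Slc2a1 was highest in the hydrogel library of this class, at 33.9, 63.0 and 35.7 CPM, from 20 UMIs in the untreated library, and so was Hk1 at 22.1, 40.0 and 19.1 CPM. Pfkfb3 was at 20.4, 40.3 and 37.4 CPM. Gpi, highest in this class, was at 263, 207 and 185 CPM. Among the 7 compared classes Pdk1 also had its highest mean here, at 32.2, 23.4 and 18.3 CPM. So did Pfkp, with 24.5 CPM in the hydrogel and 7.83 CPM in the CO hydrogel library. In the CO hydrogel library mural-like cells were highest for both. Keratinocyte-like cells, not among the 7, had Pdk1 at 30.8, 25.3 and 36.5 CPM and Pfkp at 19.1, 18.4 and 16.5 CPM.

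Dendritic-like cells (111, 287 and 333 cells) came from cluster 18, with 83, 108 and 130 cells and a summed member level of 4953, 4614 and 3979 CPM, and cluster 23, with 28, 179 and 203 cells at 3483, 3014 and 3021 CPM. Most untreated cells were thus in cluster 18 and most treated cells in cluster 23. In the whole class Ldha was at 1398, 761 and 783 CPM, Eno1 at 456, 283 and 253, Pgk1 at 281, 213 and 163 and Aldoa at 665, 518 and 433 CPM. Slc2a1 was at 188, 241 and 209 CPM and Slc16a3 at 131, 139 and 138 CPM, so neither was lower in the treated libraries. Egln3 was higher in both, at 26.9, 90.9 and 63.1 CPM, while in fibroblast-like cells the untreated library was highest. Pfkfb3 was at 58.3, 73.0 and 38.9 CPM and Pkm at 52.7, 58.7 and 29.5 CPM.

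Other genes of the pathway were read from lists that hold no member except Pgk1, counted also as a housekeeping gene. Of 33 other HIF-induced genes, 28 were measured in fibroblast-like cells. In the CO hydrogel library 12 of them were at least 1.5-fold lower and 2 higher than in the untreated library. The median was -0.37, and among all genes of the class 5.59% were lower and 15.2% higher. Higd1a, a mitochondrial protein, was at 349.7, 148 and 157 CPM there. Angptl4, a regulator of lipoprotein lipase, stood at 842 CPM in the untreated and 381 CPM in the CO hydrogel library, and Gys1, the glycogen synthase, at 16.0, 6.72 and 6.14 CPM. Tfrc, the transferrin receptor, was higher in the hydrogel library, at 59.3 against 19.1 CPM.

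In macrophage or monocyte-like cells, 9 of 25 such genes were lower and 3 higher in the CO hydrogel than in the untreated library. Between the gels 5 of 26 were lower and 1 higher. The shares of all genes were 5.80% lower and 13.8% higher in the first pair and 6.74% and 9.81% in the second. Vegfa, the angiogenic growth factor, stood at 315, 242 and 85.3 CPM, Nos2, the inducible nitric oxide synthase, at 1111, 447 and 64.7 CPM and Plod2, a collagen lysyl hydroxylase, at 9.84, 24.8 and 5.39 CPM. Mt1, a metallothionein, was at 710.4, 11446 and 3102 CPM, with its own order. Of 12 genes of pyruvate entry to mitochondria, 10 were measured in each of the 2 classes, and 0 of them were past 1.5-fold in either direction in any pair. Of 10 other glycolysis genes measured in fibroblast-like cells, 2 were higher and 0 lower in the CO hydrogel than in the untreated library. Among all genes of the class 15.2% were at least 1.5-fold higher and 5.59% lower. The 2 were Ldhb, the lactate dehydrogenase subunit of oxidative tissue (19.9 against 8.06 CPM), and Pfkm, the muscle phosphofructokinase (10.7 against 4.96 CPM).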

How the data were processed

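Single-cell RNA was measured in 3 libraries of rat wound skin, 1 per group, by droplet 3′ sequencing. The deposited matrices hold raw UMI counts per gene and cell barcode, made by the authors with Cell Ranger 6.0.1 per the file headers. Another Cell Ranger version, 7.0.0, stands in the submitters' processing notes, beside the rn6 build, Seurat 4.2.0 and DESeq 1.38.0. The libraries held 78233883, 109148721 and 109718517 UMIs.

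From these, cells with at least 500 UMIs, at least 300 genes and at most 20% mitochondrial UMIs were kept, and cells with the highest Scrublet scores were removed at 0.8% per 1000 cells (9.31%, 10.8% and 11.4%). Scrublet's own threshold marked 0, 436 and 587 cells. Cells were clustered jointly (scanpy 1.11.5, 2000 variable genes, 30 components, 20 neighbours, Leiden resolution 1), without correction between libraries. A cluster was named "X-like" where at least 3 markers of a class were read in at least 20% of its cells, that class scored best and at least 0.2, and the 10 leading genes held no more markers of another class; a cluster whose cells had a median UMI count over 3 times below that of their own library and whose leading genes held 0 of the class markers also stayed unnamed. In all, 5 of 28 clusters stayed unnamed. The scoring was chosen after seeing the data, and other names could change the values. Members, markers and lists were chosen with earlier results of these data known.

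UMIs were summed per class and library. Levels have exact Poisson intervals and ratios exact conditional binomial intervals (95%), which cover counting error only, not the spread between animals. A ratio was taken where both libraries together held at least 100 UMIs, and 1.5-fold was the size used to count. The share of all genes past it is given for the same class and pair under the settings described here. Counts under alternative settings have no such share beside them. For shares of cells, each cell was thinned to 1000 UMIs, which left out 71, 77 and 153 fibroblast-like cells. A member's values are given in the class where it is highest and where it passed 1.5-fold with an interval that leaves out 0. The calculation was tested on simulated counts. TMM factors came from edgeR 4.0.16, used for scaling alone. Alternatives covered cell filters, doublets, clustering, scaling, cell weights, cluster mix and count minimums. The matched cluster mix left out clusters with fewer than 20 cells in either library of a pair.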

Additional observations from a re-analysis of the deposited data

Results flagged for a closer look

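Hk2, the inducible hexokinase, differed in direction between endothelial-like and neutrophil-like cells once each class's median ratio over all genes was subtracted. For CO hydrogel to untreated the relative log2 ratio was 0.72 (0.51 to 0.94) in endothelial-like cells and -1.68 (-1.86 to -1.51) in neutrophil-like cells. For hydrogel to untreated it was 0.97 (0.75 to 1.19) and -1.15 (-1.22 to -1.09). The levels were 58.4, 121 and 99.7 CPM in endothelial-like and 857, 629 and 439 CPM in neutrophil-like cells. Both pairs share the untreated library, each group is 1 library, and the difference between the classes was not tested.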

How the results depend on the processing

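No paired analysis was possible because each group is 1 library. Of the 15 counts of members past 1.5-fold (5 classes, 3 pairs), all stayed within 1.5 times under a clustering resolution of 2 and without barcodes shared between libraries. The latter, the unnamed clusters and the members over 5 times higher in another class were added as alternatives after seeing the data. Counts lower are meant unless higher is stated, and the value as reported comes first. Shares of all genes under the alternatives are not given here. For hydrogel to untreated in macrophage or monocyte-like cells, 5 became 2 with a stricter cell filter, without doublet removal, with the cluster mix matched and with unnamed clusters added, 3 with every cell weighted equally and 8 under TMM factors and with each library clustered by itself.

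Without doublet removal, the counts between the gels moved from 2 to 1 in neutrophil-like and from 2 to 4 in mural-like cells, and the mural count higher for CO hydrogel to untreated from 2 to 1. With each library clustered by itself, the fibroblast count between the gels moved from 4 to 8 and the same mural count to 1. Under TMM factors, the fibroblast count for hydrogel to untreated moved from 9 to 14, the neutrophil count between the gels from 2 to 7, the neutrophil counts higher than untreated from 9 and 10 to 1 and 1, and the mural ones from 3 and 2 to 0 and 1. With every cell weighted equally, the counts between the gels moved from 2 to 1 in neutrophil-like, from 3 to 1 in endothelial-like and from 2 to 5 in mural-like cells; for CO hydrogel to untreated the endothelial count moved from 4 to 7 and the mural count higher from 2 to 1. With the cluster mix matched, the macrophage counts of CO hydrogel moved from 16 to 6 against hydrogel and from 13 to 7 against untreated, and the neutrophil counts higher from 9 to 4 and from 10 to 1.

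With no minimum and 0.5 counts added, the fibroblast count between the gels was 7, the neutrophil counts were 4, 16 higher and 19 higher for the gels, hydrogel to untreated and CO hydrogel to untreated, the endothelial counts 6, 6 and 9, and the mural count higher for CO hydrogel to untreated 5. At a fold of 2, in the same order of pairs, the counts were 1, 1 and 7 in fibroblast-like cells, 0, 3 higher and 4 higher in neutrophil-like, 1, 0 and 2 in endothelial-like and 1, 0 higher and 0 higher in mural-like cells; in macrophage or monocyte-like cells they were 6, 0 and 10. Without members over 5 times higher elsewhere, the counts between the gels were 2 in fibroblast-like and 1 in mural-like cells, and the mural count higher for CO hydrogel to untreated was 1.

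Directions turned for 16 ratios. TMM factors turned 13 in neutrophil-like cells: for hydrogel to untreated Gpi became -0.16, Pgk1 -0.15, Pgam1 -0.27, Eno1 -0.26 and Slc16a3 -0.18, and for CO hydrogel to untreated Gpi became -0.34, Pgk1 -0.11, Pgam1 -0.51, Eno1 -0.27, Pkm -0.57, Slc16a3 -0.13, Egln1 -0.23 and Ndrg1 -0.32. With the cluster mix matched, Adm in macrophage or monocyte-like cells became 0.14 for hydrogel to untreated and Egln1 in neutrophil-like cells -0.09 for CO hydrogel to untreated. With each library clustered by itself, Aldoc in macrophage or monocyte-like cells became -0.01 for hydrogel to untreated. The cause of these changes was not tested. The CO hydrogel neutrophil-like class held 603152 UMIs in 453 cells, which limits the precision of its ratios.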
